A study of Mus musculus with 8 samples.

Results

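Thymic tuft cells, or Tuft-mTECs, are described here through 9 genes, chosen by name: the transcription factors Pou2f3 and Gfi1b, the cytoskeletal genes Dclk1 and Avil, the surface receptors Siglecf and Il17rb, the secreted effector Il25 with Chat, which makes another, and the adaptor Sh2d6. All 9 were found among the 25466 genes of the count table, and all 9 passed the filter on low counts, which left 17006 genes to test. RNA-seq was performed on 8 libraries of medullary thymic epithelial cells (mTECs) from the thymus of wild-type BL6N6 mice of 4 to 6 weeks. The cells were sorted as EpCAM-positive, CD45-negative and CDR1-negative, and then by the surface proteins Tspan8 and MHCII into Tspan8negMHCIIlo, Tspan8negMHCIIhi, Tspan8posMHCIIhi and Tspan8posMHCIIlo, with 2 biological replicates of each. All groups shared this genotype and sort and differed in the Tspan8 and MHCII gates, with no treatment, and whether a library came from 1 mouse or from pooled mice is not given in the sources used here. Tspan8 stands for a tissue-restricted antigen, and MHCII is a maturation marker that both early and late mTECs hold at a low level. The comparisons therefore ask in which of the 4 gates the tuft programme was found.

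Tuft cells are chemosensory epithelial cells best known from the gut and airways, where they sense luminal signals through a taste-type cascade and answer with cytokines, lipid mediators and acetylcholine. In the intestine, IL-25 from tuft cells acts on group 2 innate lymphoid cells, whose IL-13 acts back on the epithelium. In the thymus, mTECs with a tuft-like programme belong to the mimetic cells, which copy peripheral cell types and thereby widen the range of self-antigens shown to developing T cells. Pou2f3 is the master regulator of this lineage.

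The libraries held 1941518 to 7783841 counts (median 4857083.5) and 18173 to 23570 detected genes. Tspan8 had 347 to 404 CPM (TMM-normalised counts, scaled to library size) in the Tspan8pos libraries and 3.65 to 14.6 CPM in the Tspan8neg libraries. H2-Ab1, an MHCII chain, had 1700 to 2074 CPM in Tspan8negMHCIIlo against 4988 to 5098 CPM in Tspan8negMHCIIhi, and 489 to 518 CPM in Tspan8posMHCIIlo against 2431 to 2619 CPM in Tspan8posMHCIIhi. The 8 mTEC markers together had 3123 to 5851 CPM in every library. Replicate 2 of Tspan8negMHCIIlo stood apart from replicate 1: its 8 thymocyte markers summed to 997 CPM against 352 CPM, and it had the higher level of all 9 tuft genes, by a median of 1.47 times. The thymocyte sum was also higher in replicate 2 of Tspan8negMHCIIhi (140 against 66.5 CPM), Tspan8posMHCIIhi (107 against 74.9 CPM) and Tspan8posMHCIIlo (212 against 124 CPM). The part of replicate 2 of Tspan8negMHCIIlo in the results was not tested, and values without it are given where they change a call.

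The genes lie on 7 chromosomes of the GRCm38 genome and are all protein-coding. Pou2f3 (ENSMUSG00000032015) lies at chr9:43123939-43210369 on the minus strand and Gfi1b (ENSMUSG00000026815) at chr2:28609450-28621982 on the minus strand. Dclk1 (ENSMUSG00000027797) lies at chr3:55242364-55539068 and Avil (ENSMUSG00000025432) at chr10:127000709-127020994, both on the plus strand. Siglecf (ENSMUSG00000039013) lies at chr7:43351341-43359531 on the plus strand and Sh2d6 (ENSMUSG00000052631) at chr6:72513641-72521707 on the minus strand. Chromosome 14 holds Il17rb (ENSMUSG00000015966, 29996135 to 30008896, minus strand), Chat (ENSMUSG00000021919, 32408203 to 32465989, minus strand) and Il25 (ENSMUSG00000040770, 54932695 to 54935837, plus strand). Exons of Avil overlap those of Tsfm and exons of Il17rb overlap those of Actr8, each on the opposite strand, and the sources differ on whether the reads keep strand, so reads could be shared. Tsfm had 21 to 112 counts against 193 to 14303 counts for Avil. Actr8 had 48 to 257 counts against 62 to 1834 counts for Il17rb, and it outnumbered Il17rb in both Tspan8negMHCIIhi libraries. Exons of Dclk1 overlap those of Gm42609 and Gm21954 on the opposite strand, which have no row in the table used here.

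RefSeq promoter windows of GRCm38.p6 were given for 7 of the 9 genes, and not for Pou2f3 and Il25. The 250 bases before the start are shown for Avil and Chat, which hold the searched motifs, and for Siglecf, the 1 gene called in the interaction described further on, which holds none. Capitals mark ATGCAAA, the first letters of the octamer to which POU factors such as Pou2f3 bind, or AATCAC, the core bound by GFI factors such as Gfi1b, on either strand.
Avil (chr10:127000459-127000708, plus strand): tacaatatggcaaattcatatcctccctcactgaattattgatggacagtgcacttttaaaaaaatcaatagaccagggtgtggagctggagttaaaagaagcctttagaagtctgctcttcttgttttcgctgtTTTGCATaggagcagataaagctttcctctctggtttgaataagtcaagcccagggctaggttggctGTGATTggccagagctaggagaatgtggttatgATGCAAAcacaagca
Chat (chr14:32465910-32466159, minus strand): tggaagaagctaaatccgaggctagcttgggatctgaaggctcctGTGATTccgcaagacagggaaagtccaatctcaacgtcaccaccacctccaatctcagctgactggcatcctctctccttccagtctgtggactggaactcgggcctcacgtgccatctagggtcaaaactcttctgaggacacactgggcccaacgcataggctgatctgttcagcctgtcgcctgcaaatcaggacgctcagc
Siglecf (chr7:43351091-43351340, plus strand): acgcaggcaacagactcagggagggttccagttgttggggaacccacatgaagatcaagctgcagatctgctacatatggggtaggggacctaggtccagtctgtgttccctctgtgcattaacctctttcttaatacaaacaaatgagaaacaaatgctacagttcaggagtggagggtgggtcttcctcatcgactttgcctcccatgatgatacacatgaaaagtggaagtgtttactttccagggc
The full octamer ATGCAAAT was in the window of 0 of the 7 genes, and 1.97% of the 27025 genes with a window hold it. Its first 7 letters were found in Avil alone, at 15 bases before the start and, on the opposite strand, at 115 bases before it, and 5.24% of all genes with a window hold them. The GFI-type core was found on the opposite strand in Avil, 48 bases before the start, and in Chat, 205 bases before it, and 11.7% of genes hold it. The matches do not overlap. They describe the letters of these windows and were not tested for binding.

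All 9 genes had their highest level in Tspan8posMHCIIlo, where no library overlapped a library of another subset. A gene was called when its adjusted p in edgeR's quasi-likelihood test was under 0.01 and its log2 fold change was at least 1 in size. Against Tspan8posMHCIIhi, 9 of 9 genes were higher in Tspan8posMHCIIlo, where 2.62% of all genes tested were called higher. Against Tspan8negMHCIIlo, 9 of 9 were higher, beside 12.1% of all genes. Against Tspan8negMHCIIhi, 9 of 9 were higher, beside 14.7% of all genes, with log2 fold changes from 2.98 for Gfi1b to 6.27 for Sh2d6.

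Among the Tspan8neg cells, 7 of 9 genes were higher in MHCIIlo than in MHCIIhi, beside 9.67% of all genes called higher. The exceptions were Gfi1b and Siglecf. Among the MHCIIhi cells, 8 of 9 were higher in Tspan8pos than in Tspan8neg, beside 11.0% of all genes, and Siglecf was the exception. The median log2 fold change of the 9 genes was 2.19 for MHCIIlo minus MHCIIhi within Tspan8neg and 2.58 within Tspan8pos. It was 2.68 for Tspan8pos minus Tspan8neg within MHCIIlo and 2.61 within MHCIIhi. The medians over all genes tested were 0.039, -0.0067, -0.029 and -0.027 in the same order. In bulk libraries, fewer cells of a type and less RNA per cell cannot be told apart, so these are differences between sorted populations.

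**Figure D1:**
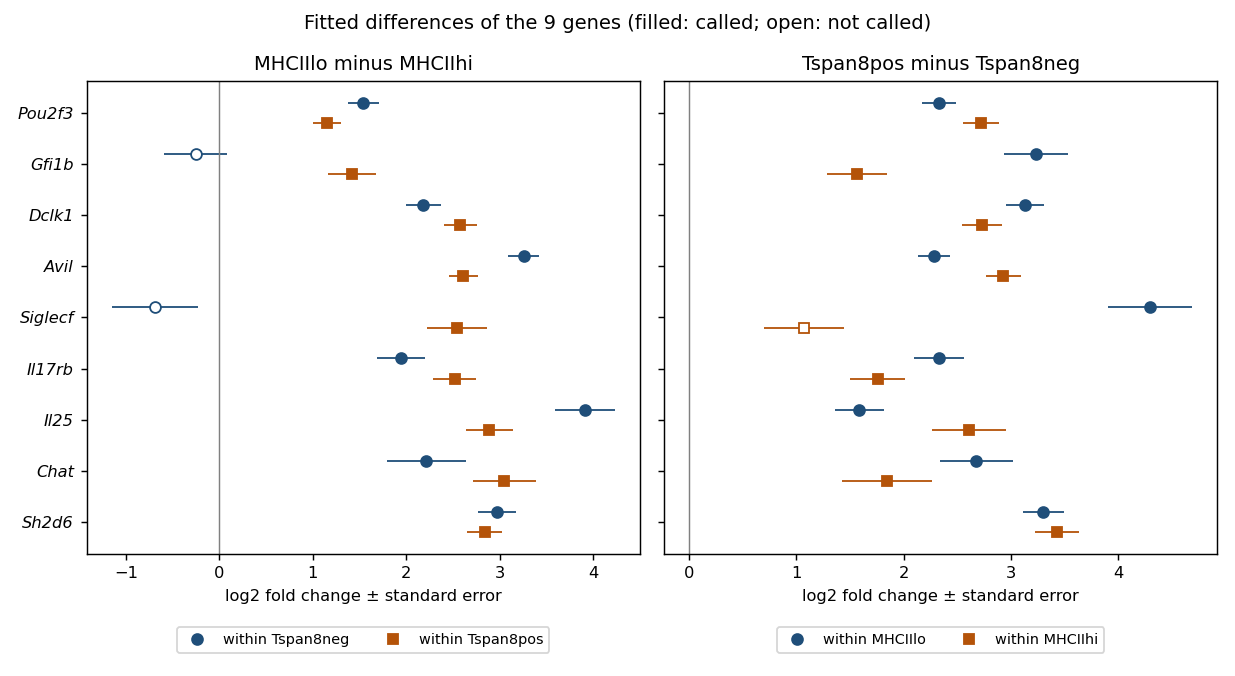
Fitted log2 fold changes (x axis, with standard errors as bars) of the 9 genes (y axis) for MHCIIlo minus MHCIIhi (left) and Tspan8pos minus Tspan8neg (right), filled where called and open where not. Gfi1b (-0.25) and Siglecf (-0.69) lie left of 0 within Tspan8neg, while all 9 lie at 1.15 or more within Tspan8pos.

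The transcription factors differed from each other. Pou2f3, the POU-domain factor on which tuft cells depend, had 57.0 and 77.6 CPM in the Tspan8negMHCIIlo replicates and 23.3 and 23.1 CPM in Tspan8negMHCIIhi. It had 155.5 and 150.6 CPM in Tspan8posMHCIIhi and 342 and 338 CPM in Tspan8posMHCIIlo. The 4 subsets were ordered without overlap, from Tspan8negMHCIIhi through Tspan8negMHCIIlo and Tspan8posMHCIIhi to Tspan8posMHCIIlo, and every step of this order was called. MHCIIlo exceeded MHCIIhi by a log2 fold change of 1.54 ± 0.17 (SE) within Tspan8neg (adjusted p = 4.09e-05) and by 1.15 ± 0.15 within Tspan8pos (adjusted p = 0.000414). Tspan8pos exceeded Tspan8neg by 2.33 ± 0.16 within MHCIIlo (adjusted p = 1.1e-06) and by 2.72 ± 0.17 within MHCIIhi (adjusted p = 6.59e-07).

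Gfi1b, a zinc finger repressor best known from erythroid cells and megakaryocytes, separated the subsets by Tspan8 more than by MHCII. It had 3.37 and 5.66 CPM in Tspan8negMHCIIlo, 4.58 and 6.15 CPM in Tspan8negMHCIIhi, 15.1 and 17.3 CPM in Tspan8posMHCIIhi, and 48.9 and 38.9 CPM in Tspan8posMHCIIlo. The Tspan8neg subsets overlapped, and the Tspan8pos libraries all lay above them. MHCIIlo minus MHCIIhi was -0.25 ± 0.34 within Tspan8neg (adjusted p = 0.583), and within Tspan8pos Gfi1b rose by 1.42 ± 0.26 (adjusted p = 0.00322). Tspan8pos exceeded Tspan8neg by 3.24 ± 0.30 within MHCIIlo (adjusted p = 1.08e-05) and by 1.57 ± 0.28 within MHCIIhi (adjusted p = 0.00132). The call within Tspan8pos was lost without any 1 of the 4 Tspan8pos libraries (log2 fold changes 1.24 to 1.59). The call within MHCIIhi was lost without either Tspan8negMHCIIhi library or without replicate 2 of Tspan8posMHCIIhi, at 1.32 to 1.74. Each of these fits left 1 library in a subset and called fewer of all genes tested in the same comparison. The 10 erythroid and megakaryocyte markers summed to 81.2 to 110.8 CPM in Tspan8negMHCIIlo, 70.9 to 75.6 CPM in Tspan8negMHCIIhi, 52.2 to 62.4 CPM in Tspan8posMHCIIhi and 56.8 to 68.2 CPM in Tspan8posMHCIIlo. In MHCIIlo minus MHCIIhi within Tspan8pos, edgeR called 1 of the 9 tested higher, the haemoglobin gene Hbb-bs (1.85 ± 0.35, adjusted p = 0.00434). The median log2 fold change of the 9 there was -0.76, and 2.62% of all genes were called higher. In Tspan8pos minus Tspan8neg within MHCIIlo, 1 was called higher, the haem synthesis gene Alas2 (1.94 ± 0.38, adjusted p = 0.00187). The median there was -0.77, and 12.1% of all genes were called higher. Gfi1b was higher in both comparisons, and the other 8 markers were called in neither direction in each. In Tspan8pos minus Tspan8neg within MHCIIhi edgeR called 0 of the 9, and 3 had an unadjusted p under 0.05. Gp9 was the 1 marker at 0 counts in both Tspan8posMHCIIlo libraries, and the part of these cells in the Gfi1b differences was not tested.

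**Figure D2:**
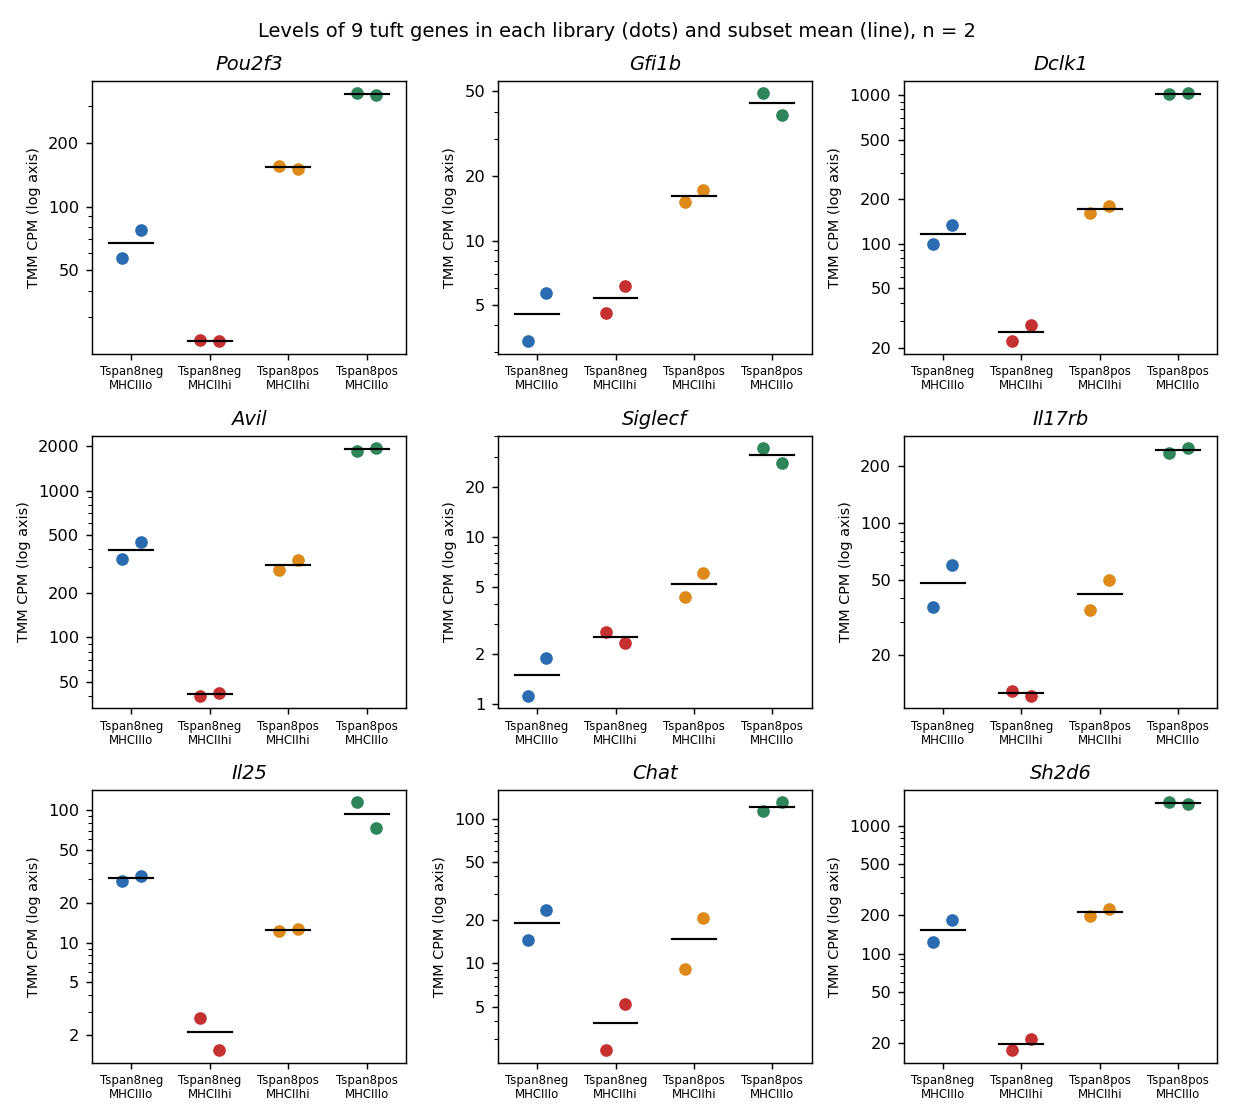
Level of each of the 9 genes in TMM-normalised CPM (y axis, log scale) in the 4 subsets (x axis), with 1 dot per library and a line at the mean of 2. In all panels the Tspan8posMHCIIlo dots lie highest, and in the Gfi1b and Siglecf panels the Tspan8negMHCIIlo mean (4.51 and 1.50 CPM) lies below that of Tspan8negMHCIIhi (5.36 and 2.51 CPM).

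The cytoskeletal genes differed in both gates. Dclk1, a microtubule-associated kinase widely used to mark tuft cells, had 98.6 and 132.7 CPM in Tspan8negMHCIIlo and 22.0 and 28.5 CPM in Tspan8negMHCIIhi. It had 160.5 and 178.4 CPM in Tspan8posMHCIIhi and 1005 and 1022 CPM in Tspan8posMHCIIlo. The subsets did not overlap, but the difference between the subsets in the middle of the order, Tspan8posMHCIIhi minus Tspan8negMHCIIlo, was 0.55 ± 0.17 and not called (adjusted p = 0.0201). Dclk1 rose from MHCIIhi to MHCIIlo by 2.19 ± 0.18 within Tspan8neg (adjusted p = 7.28e-06) and by 2.58 ± 0.17 within Tspan8pos (adjusted p = 7.69e-06). It was higher in Tspan8pos by 3.13 ± 0.18 within MHCIIlo (adjusted p = 3.46e-07) and by 2.73 ± 0.18 within MHCIIhi (adjusted p = 1.12e-06).

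Avil encodes advillin, an actin-binding protein of the villin family found in the apical tuft. Its levels were 339.9 and 445.4 CPM in Tspan8negMHCIIlo, 40.1 and 41.9 CPM in Tspan8negMHCIIhi, 289 and 336 CPM in Tspan8posMHCIIhi, and 1873 and 1952 CPM in Tspan8posMHCIIlo. Here Tspan8negMHCIIlo lay slightly above Tspan8posMHCIIhi in every library, by a margin that was not called (Tspan8posMHCIIhi minus Tspan8negMHCIIlo -0.33 ± 0.15, adjusted p = 0.0901). The step from MHCIIhi to MHCIIlo was 3.26 ± 0.16 within Tspan8neg (adjusted p = 5.9e-07), or 9.56-fold, and 2.61 ± 0.16 within Tspan8pos (adjusted p = 5.63e-06), or 6.12-fold. Between the Tspan8 gates the increase was 2.28 ± 0.15 within MHCIIlo (adjusted p = 9.99e-07) and 2.93 ± 0.16 within MHCIIhi (adjusted p = 4.26e-07).

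The surface receptors diverged. Siglecf, a sialic acid-binding lectin with inhibitory motifs that is also a surface marker of eosinophils, was the lowest of the 9 genes per kilobase of exon in 3 of the 4 subsets. It had 4 and 8 counts (1.12 and 1.89 CPM) in Tspan8negMHCIIlo, 13 and 18 counts (2.70 and 2.31 CPM) in Tspan8negMHCIIhi, 22 and 30 counts (4.38 and 6.10 CPM) in Tspan8posMHCIIhi, and 62 and 204 counts (34.1 and 27.8 CPM) in Tspan8posMHCIIlo. The Tspan8posMHCIIlo libraries stood well above the other 6, which held 1.12 to 6.10 CPM. MHCIIlo minus MHCIIhi was -0.69 ± 0.46 within Tspan8neg (adjusted p = 0.259), while within Tspan8pos Siglecf rose by 2.54 ± 0.32 (adjusted p = 0.000348). Tspan8pos exceeded Tspan8neg by 4.30 ± 0.39 within MHCIIlo (adjusted p = 8.82e-06), which was the largest log2 fold change of the 9 genes in that comparison. Within MHCIIhi the difference of 1.07 ± 0.37 was not called (adjusted p = 0.0408).

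All 8 eosinophil markers were detected, and they summed to 15.4 to 32.1 CPM in Tspan8negMHCIIlo, 150.6 to 170.1 CPM in Tspan8negMHCIIhi, 309 to 312 CPM in Tspan8posMHCIIhi and 123 to 157 CPM in Tspan8posMHCIIlo. Their sum was lowest in Tspan8negMHCIIlo, as Siglecf was, and highest in Tspan8posMHCIIhi, where Ear1 had the largest mean (181 CPM). The markers did not share this order. Epx, Prg2 and Prg3 had their highest means in Tspan8negMHCIIhi, at 43.0, 62.3 and 16.4 CPM, against 9.77, 34.3 and 5.34 CPM in Tspan8posMHCIIhi. In Tspan8pos minus Tspan8neg within MHCIIhi, 2 of 8 were called higher and 1 lower, beside 11.0% and 7.45% of all genes. In Tspan8pos minus Tspan8neg within MHCIIlo, 2 of 8 were higher, beside 12.1% of all genes, with a median log2 fold change of 1.02. The higher ones were the granule ribonucleases Ear1 (87.9 against 3.76 CPM on average) and Ear2 (16.6 against 3.13 CPM). In MHCIIlo minus MHCIIhi within Tspan8pos 2 of 8 were lower, Prg2 (-1.16) and Il5ra (-1.83), beside 4.59% of all genes. Prg3 was at 0 counts in 1 library of Tspan8posMHCIIlo and in 1 of Tspan8negMHCIIlo, and Ccr3 and Ear6 in 1 of Tspan8negMHCIIlo. The part of eosinophils in the Siglecf differences was not tested.

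Il17rb, the subunit that gives the IL-25 receptor its specificity, followed the other members more closely. Its levels were 36.0 and 60.1 CPM in Tspan8negMHCIIlo, 12.9 and 12.2 CPM in Tspan8negMHCIIhi, 34.9 and 49.8 CPM in Tspan8posMHCIIhi, and 234.7 and 250.4 CPM in Tspan8posMHCIIlo. Tspan8negMHCIIlo and Tspan8posMHCIIhi overlapped (difference -0.19 ± 0.23, adjusted p = 0.53). From MHCIIhi to MHCIIlo it rose by 1.95 ± 0.26 within Tspan8neg (adjusted p = 0.000146) and by 2.52 ± 0.23 within Tspan8pos (adjusted p = 4.12e-05). From Tspan8neg to Tspan8pos it rose by 2.33 ± 0.23 within MHCIIlo (adjusted p = 1.66e-05) and by 1.76 ± 0.26 within MHCIIhi (adjusted p = 0.000305). Group 2 innate lymphoid cells also carry Il17rb. Their 5 markers summed to 72.4 to 82.7 CPM in the 4 Tspan8neg libraries. In the 4 Tspan8pos libraries they summed to 112.5 to 156.9 CPM, with the higher sums in MHCIIhi. The markers were split, since within MHCIIhi 2 of 5 were called higher in Tspan8pos and 2 lower, beside 11.0% and 7.45% of all genes. Rora averaged 82.8 CPM in Tspan8posMHCIIhi against 34.6 CPM in Tspan8negMHCIIhi, and Gata3 averaged 38.6 CPM against 9.89 CPM. The lower ones were Il1rl1 (6.33 against 19.4 CPM) and Zbtb16 (4.82 against 11.6 CPM). Within MHCIIlo 1 of 5 was called higher, Gata3 (38.1 against 17.5 CPM on average), beside 12.1% of all genes. The part of these cells in the Tspan8 comparison was not tested.

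The effectors held the largest MHCII difference in each Tspan8 gate. Il25, the cytokine by which tuft cells start type 2 responses, had 29.2 and 31.8 CPM in Tspan8negMHCIIlo and 2.70 and 1.54 CPM in Tspan8negMHCIIhi. It had 12.1 and 12.6 CPM in Tspan8posMHCIIhi and 114.3 and 73.6 CPM in Tspan8posMHCIIlo. The subsets did not overlap, and Tspan8negMHCIIlo came second, above Tspan8posMHCIIhi. The rise from MHCIIhi to MHCIIlo was 3.91 ± 0.32 within Tspan8neg (adjusted p = 6.77e-06), or 15.0-fold and the largest of the 9 genes there, and 2.89 ± 0.25 within Tspan8pos (adjusted p = 2.72e-05). The rise from Tspan8neg to Tspan8pos was 1.59 ± 0.23 within MHCIIlo (adjusted p = 0.000268), the smallest of the 9 genes there, and 2.61 ± 0.35 within MHCIIhi (adjusted p = 0.000158). In Tspan8negMHCIIhi Il25 rested on 13 and 12 counts.

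Chat, choline acetyltransferase, which makes acetylcholine, had the highest ratio of replicate 2 to replicate 1 of the 9 genes, 2.24 in Tspan8posMHCIIhi. It had 14.6 and 23.3 CPM in Tspan8negMHCIIlo, 2.50 and 5.26 CPM in Tspan8negMHCIIhi, 9.16 and 20.5 CPM in Tspan8posMHCIIhi, and 113.8 and 130.5 CPM in Tspan8posMHCIIlo. The subsets in the middle overlapped, with a difference of -0.37 ± 0.37 (adjusted p = 0.436). Chat rose from MHCIIhi to MHCIIlo by 2.21 ± 0.42 within Tspan8neg (adjusted p = 0.00159) and by 3.05 ± 0.34 within Tspan8pos (adjusted p = 0.000145), the largest of the 9 genes within Tspan8pos. It rose from Tspan8neg to Tspan8pos by 2.68 ± 0.34 within MHCIIlo (adjusted p = 9.44e-05) and by 1.85 ± 0.42 within MHCIIhi (adjusted p = 0.00554). The call within Tspan8neg was lost without replicate 1 of Tspan8negMHCIIhi (1.77). The call within MHCIIhi was lost without either Tspan8negMHCIIhi library, without replicate 2 of Tspan8posMHCIIhi, or without either Tspan8posMHCIIlo library (1.17 to 2.48). These fits, too, left 1 library in a subset and called fewer of all genes tested.

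Sh2d6, which encodes a small SH2-domain adaptor, had the widest range of the 9 genes. Its levels were 123.9 and 182.2 CPM in Tspan8negMHCIIlo, 17.5 and 21.3 CPM in Tspan8negMHCIIhi, 196 and 225 CPM in Tspan8posMHCIIhi, and 1531 and 1490.4 CPM in Tspan8posMHCIIlo. Between Tspan8negMHCIIhi and Tspan8posMHCIIlo this was a 77.3-fold difference (6.27 ± 0.22, adjusted p = 3.04e-08). The subsets in the middle did not overlap but were not called apart (0.46 ± 0.18, adjusted p = 0.0543). The rise from MHCIIhi to MHCIIlo was 2.97 ± 0.20 within Tspan8neg (adjusted p = 2.13e-06) and 2.84 ± 0.19 within Tspan8pos (adjusted p = 7.69e-06). The rise from Tspan8neg to Tspan8pos was 3.30 ± 0.19 within MHCIIlo (adjusted p = 3.83e-07) and 3.43 ± 0.20 within MHCIIhi (adjusted p = 5.42e-07), so that its differences were of like size in both gates.

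Whether the MHCII difference of a gene itself differed between Tspan8pos and Tspan8neg was tested as an interaction. Of the 9 genes, 1 was called with the larger MHCIIlo increase in Tspan8pos, beside 2.36% of all genes, and none with the larger increase in Tspan8neg, where 2.24% of all genes were called (2 of 9 at an unadjusted p under 0.05 in edgeR, 0 called with DESeq2). The called gene was Siglecf, with an interaction of 3.23 ± 0.56 (adjusted p = 0.00446). This call was lost without any 1 library of Tspan8negMHCIIhi, Tspan8posMHCIIhi or Tspan8posMHCIIlo, at values of 2.98 to 3.48. Each of these fits left 1 library in a subset and called fewer of all genes tested in the interaction. The Siglecf call rests on 4 and 8 counts in Tspan8negMHCIIlo. Gfi1b had the next largest value, 1.67 ± 0.42, and was not called (adjusted p = 0.0264). Without replicate 2 of Tspan8negMHCIIlo, the Gfi1b value was 2.09 and called. Interaction calls among all genes tested also became more frequent without either library of this subset. Avil (-0.64 ± 0.21, adjusted p = 0.0754) and Il25 (-1.02 ± 0.43, adjusted p = 0.154) leaned the other way and were not called. The other 5 genes lay between -0.39 and 0.83.

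Tspan8posMHCIIhi and Tspan8negMHCIIlo, which differ in both gates, held the middle levels of most genes but not the same mix. In Tspan8posMHCIIhi, 3 of 9 genes were higher, beside 14.4% of all genes, and 1 of 9 was lower, beside 10.3%. The higher genes were Pou2f3 (1.18 ± 0.16, adjusted p = 0.000116), Gfi1b (1.82 ± 0.31, adjusted p = 0.00069) and Siglecf (1.76 ± 0.43, adjusted p = 0.00641). The lower gene was Il25, which fell by 1.30 on the log2 scale (SE 0.26, adjusted p = 0.00171). Both transcription factors were thus higher in Tspan8posMHCIIhi, whereas Dclk1, Avil, Il17rb, Chat and Sh2d6 were not called, at -0.37 to 0.55. The Siglecf call was lost with DESeq2 (1.80, adjusted p = 0.0189) and without any 1 library other than replicate 2 of Tspan8negMHCIIlo (1.48 to 1.99). Only 2 genes stayed called without replicate 1 of Tspan8negMHCIIlo, where Pou2f3 (0.995) and Siglecf (1.48) were lost, and without either Tspan8posMHCIIhi library, where Siglecf and Il25 were lost.

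The mix was also described within each library as counts per 100 Pou2f3 counts, a measure that total depth and TMM scaling do not change and that was chosen after the values were seen. For Avil it was 596 and 574 in Tspan8negMHCIIlo and 547 and 578 in Tspan8posMHCIIlo, against 172 and 182 in Tspan8negMHCIIhi and 186 and 223 in Tspan8posMHCIIhi. The MHCIIlo libraries of both Tspan8 gates were therefore alike in Avil per Pou2f3 and lay above all MHCIIhi libraries. Il25 showed the same split, with 51.2 and 41.0 in Tspan8negMHCIIlo and 33.4 and 21.8 in Tspan8posMHCIIlo against 6.67 to 11.6 in the 4 MHCIIhi libraries. Dclk1 (171 to 302 against 94.6 to 123), Sh2d6 (217 to 447 against 75 to 149.5), Il17rb (63.1 to 77.5 against 22.4 to 55.4) and Chat (25.6 to 38.6 against 5.89 to 22.8) also split by MHCII without overlap. Gfi1b and Siglecf did not. Gfi1b per 100 Pou2f3 counts was highest in Tspan8negMHCIIhi (19.6 and 26.7) and lowest in Tspan8negMHCIIlo (5.91 and 7.30). Siglecf was at 11.6 and 10 in Tspan8negMHCIIhi and 9.95 and 8.25 in Tspan8posMHCIIlo, and at 1.97 to 4.05 in the other subsets.

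**Figure D3:**
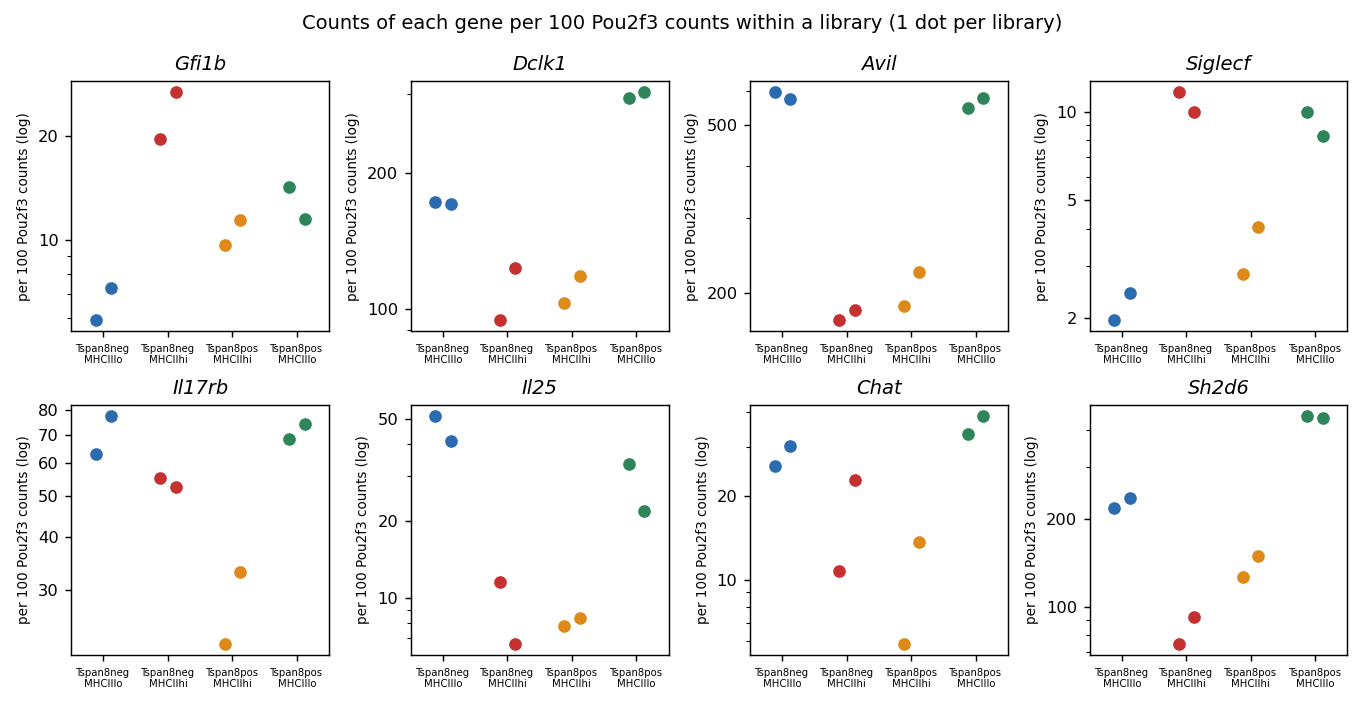
Counts of the other 8 genes per 100 Pou2f3 counts (y axis, log scale) in each library, 1 dot per library, by subset (x axis). For 6 genes every MHCIIlo dot lies above every MHCIIhi dot, whereas Gfi1b peaks in Tspan8negMHCIIhi (19.6 and 26.7) and Siglecf is lowest in Tspan8negMHCIIlo (1.97 and 2.43).

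Levels between genes were compared as mean CPM per kilobase of exon, taken over all annotated exons of a gene, which lowers genes with many isoforms such as Dclk1 (15296 bases). In Tspan8posMHCIIlo, Sh2d6 led at 894 CPM per kilobase and Avil followed at 563. Pou2f3 (110.1), Il25 (88.3), Dclk1 (66.3) and Il17rb (65.4) came next, and Chat (26.0), Gfi1b (24.0) and Siglecf (11.1) were lowest. In Tspan8negMHCIIhi the whole range was 0.824 to 12.1 CPM per kilobase. Avil and Sh2d6 held the first places in all 4 subsets. Il25 took place 3 in Tspan8negMHCIIlo, at 28.7 CPM per kilobase above Pou2f3 at 21.8, and place 6 in Tspan8negMHCIIhi, at 1.99.

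The likeness of patterns was described by Pearson's r of TMM log2 CPM over the 8 libraries, which fall into 4 pairs, so that r mostly reflects the 4 subset levels. Among the 9 genes, r ranged from 0.619 to 0.997. Dclk1 and Sh2d6 were most alike (0.997), and Gfi1b and Siglecf, which had the lowest values with Il25 (0.619 each), were most like each other (0.968). Of the 11039 other genes averaging 10 CPM or more, Avil was most like Trpm5 (0.999), the cation channel of taste signalling, then Itpr2 and Alox5. Sh2d6 was most like Alox5ap (0.998), which serves leukotriene synthesis, then Pik3cg and Aldh2. Pou2f3 was most like Kctd20 (0.998), Dusp5 and A330023F24Rik, and Dclk1 was most like Ptpn18 (0.998), Anxa4 and Tspan6. For Gfi1b these were Cystm1 (0.994), Bicdl1 and Tprn, and for Siglecf Slco4a1 (0.994), Ildr1 and Myrfl. For Il17rb they were Ccdc28b (0.997), L1cam and Chn2, for Il25 Lrp5 (0.996), Ackr4 and Atf7ip, and for Chat Cdyl (0.990) and Chn2.

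Other genes of the tuft pathways were taken from 7 lists with 63 genes in the table, of which 58 were tested. From MHCIIhi to MHCIIlo, 28 were higher and 8 lower within Tspan8neg, beside 9.67% and 13.1% of all genes. Within Tspan8pos 30 were higher and 3 lower, beside 2.62% and 4.59% of all genes. The median log2 fold changes of the 58 were 0.99 and 1.60. From Tspan8neg to Tspan8pos, 33 were higher and 1 lower within MHCIIlo, beside 12.1% and 9.34% of all genes. Within MHCIIhi 29 were higher and 1 lower, beside 11.0% and 7.45% of all genes.

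The list of chemosensory and other tuft markers also holds enzymes of lipid mediators. Of its tested genes, 14 of 17 were higher in MHCIIlo within Tspan8neg and 14 of 17 within Tspan8pos, beside 9.67% and 2.62% of all genes. The calcium channel Itpr3 (0.26 and 0.12), the prostaglandin D synthase Hpgds (0.02 and 0.50) and the succinate receptor Sucnr1 (-0.04 and 1.23) were called in neither. Gnat3, the taste G protein alpha subunit, rose by 3.93 within Tspan8neg and 2.04 within Tspan8pos. Its partner Gnb3 rose by 3.65 and 2.17, the phospholipase Plcb2 by 3.73 and 2.42, and Irag2 by 3.87 and 2.63. Of the SH2 adaptors and kinases otherwise known from blood cells, 8 of 9 were higher within Tspan8neg and 9 of 9 within Tspan8pos, beside the same shares of all genes. Among them were Vav1, a guanine nucleotide exchange factor (3.18 and 2.55), the kinases Bmx (3.13 and 2.44) and Matk (2.61 and 2.34), and Sh2d7 (2.95 and 2.81), an adaptor related to Sh2d6. Since Vav1 and several others are also used by T cells, the thymocyte markers are given beside them. These markers summed to 352 and 997 CPM in Tspan8negMHCIIlo and to 66.5 to 140.5 CPM in Tspan8negMHCIIhi. They summed to 124 and 212 CPM in Tspan8posMHCIIlo and to 74.9 and 107 CPM in Tspan8posMHCIIhi, and their part was not tested.

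Of the other tuft transcription factors and coactivators, 4 of 8 were higher within Tspan8neg and 6 of 8 within Tspan8pos, beside 9.67% and 2.62% of all genes. None was called lower by edgeR (2 of 8 and 0 of 8 at an unadjusted p under 0.05), beside 13.1% and 4.59% of all genes. Pou2af2, a coactivator of Pou2f3, rose by 2.59 and 2.64. Runx1 rose by 3.66 and 1.51, and Foxe1 by 3.52 and 2.59, the latter from 1 and 4 counts in Tspan8negMHCIIhi. Hmx3, a homeobox factor, was at -1.32 within Tspan8neg (adjusted p = 0.041, not called) and rose by 3.01 within Tspan8pos.

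In the MHCII comparisons, the lists around Il25 and Chat held no gene called higher. Of the IL-25 and type 2 cytokine axis, none of 8 genes was called higher by edgeR in either MHCII comparison (1 of 8 at an unadjusted p under 0.05 in each). Of all genes, 9.67% were called higher within Tspan8neg and 2.62% within Tspan8pos. At these shares, few or no calls would be usual in lists of this size. Il17ra, the shared chain of the IL-25 receptor, was at 0.11 within Tspan8neg and -0.14 within Tspan8pos and not called. Il13 was lower in MHCIIlo, with 2.53 and 3.30 CPM in Tspan8negMHCIIlo against 114.2 and 141.8 CPM in Tspan8negMHCIIhi, and 0.55 and 1.50 CPM in Tspan8posMHCIIlo against 31.3 and 34.7 CPM in Tspan8posMHCIIhi. It fell by 5.43 and 4.64 on the log2 scale. Of acetylcholine handling, 4 of 7 genes were tested, and 3 were lower within Tspan8neg and 2 within Tspan8pos, beside 13.1% and 4.59% of all genes. The cholinesterases Ache (-2.01 and -1.44) and Bche (-1.30 and -1.50), which break acetylcholine down, were lower in MHCIIlo in both, opposite in direction to Chat. Slc10a4, a vesicular transporter, had 0 and 2 counts in Tspan8negMHCIIlo against 34 and 55 counts in Tspan8negMHCIIhi. From Tspan8neg to Tspan8pos within MHCIIlo, 2 of 8 genes of the type 2 axis were higher, beside 12.1% of all genes. Within MHCIIhi 1 was higher and 1 lower, beside 11.0% and 7.45%. Of the 4 acetylcholine genes tested, 1 was higher in Tspan8pos at each MHCII level.

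In the villin and microvillar list, 2 of 7 genes were higher and 2 lower within Tspan8neg, beside 9.67% and 13.1% of all genes. Within Tspan8pos 1 was higher, beside 2.62%. Espn, an actin-bundling protein of microvilli, rose by 1.59 and 1.73, and Dclk2 by 1.84 within Tspan8neg. Vill, a villin-like gene, fell by 1.60 within Tspan8neg, and Dclk3 had 0 and 2 counts in Tspan8negMHCIIlo against 30 and 52 counts in Tspan8negMHCIIhi. Of the other Siglec genes, 5 of 6 were tested, and 2 were lower within Tspan8neg, beside 13.1% of all genes. Within Tspan8pos none was called by edgeR (1 higher and 2 lower at an unadjusted p under 0.05), beside 2.62% of all genes called higher and 4.59% lower. Siglec1 had 0 and 10 counts in Tspan8negMHCIIlo against 91 and 140 counts in Tspan8negMHCIIhi, and Siglece had 2 and 9 counts against 41 and 74 counts. Siglec1 is a macrophage gene, and the 7 macrophage markers summed to 19.1 to 40.6 CPM in Tspan8negMHCIIlo and to 118.5 to 127.2 CPM in Tspan8negMHCIIhi; their part was not tested.

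**Figure D4:**
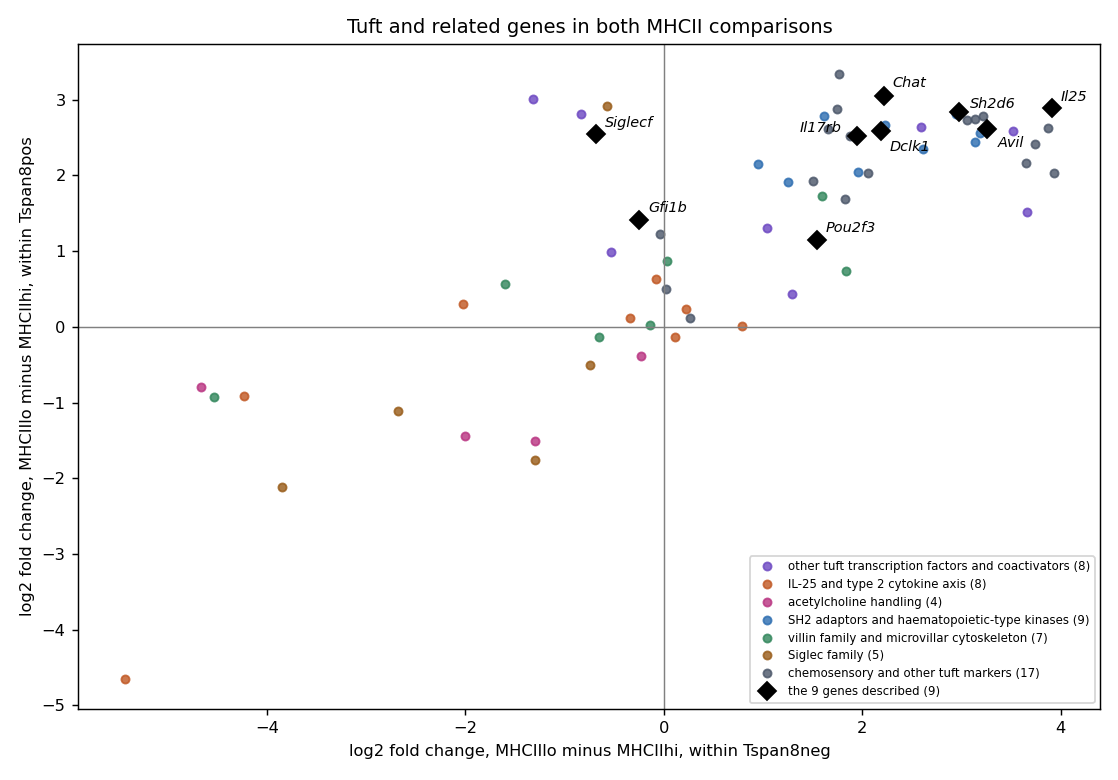
Log2 fold change of MHCIIlo minus MHCIIhi within Tspan8neg (x axis) and within Tspan8pos (y axis) for the 9 genes (black diamonds) and 58 genes of 7 pathway lists (dots). Most genes of the chemosensory and other tuft marker list and of the SH2 list lie with 7 of the 9 genes at the upper right, Gfi1b (-0.25, 1.42) and Siglecf (-0.69, 2.54) lie at the upper left, and Il13 (-5.43, -4.64) lies at the lower left.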

How the data were processed

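Estimated counts for each gene in each library were deposited by the authors as whole numbers with no normalization, so that rounding changed no value. Per the labels, reads were checked with FastQC and quantified with Salmon 1.8.0, and the paper names the Gencode mouse transcriptome; the authors then used DESeq2 1.30.0. Libraries were grouped by the sorted subset in the sample titles (8 libraries, 2 per subset), and no column was left out. Symbols, positions and exon lengths came from GENCODE on GRCm38, with 25336 of 25466 identifiers (99.49%) matched. Library preparation is given as a strand-specific kit in the labels and as tagmented, amplified cDNA in the paper.

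Counts were tested in R 4.3.3 with edgeR 4.0.16 (TMM, filterByExpr on the 4 subsets, quasi-likelihood F test, 1 fit of all 8 libraries, common dispersion 0.024), with Benjamini-Hochberg adjustment over 17006 genes. All tests were two-sided. Each standard error is the size of the log2 fold change over the root of its F statistic, and values with no ± are from the same fit. No exact permutation test was run, since 2 libraries against 2 cannot give a p below 0.05. P-values measure the spread between these libraries. Replicate numbers come from the titles and are not said to mark shared mice. Amplified reads carry no molecular identifiers, so counts overstate the number of independent molecules.

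The 9 genes, the lists and the motifs were chosen with earlier results of these data known. Named genes were the 9 genes, at most 4 pathway genes per list that were called in either MHCII comparison (those with the largest change within Tspan8neg), and the 3 genes most like each of the 9 (prior count 2), of which 1 is not reported here. Il17ra, Itpr3, Hpgds, Sucnr1 and the marker genes named beside a result were added after their values were seen. Alternatives were DESeq2 1.42.0, its size factors in edgeR, no filter, a minimum of 10 counts in 4 or more libraries, a fit of just the 4 libraries compared, the replicate block, an adjusted p of 0.05, each library left out and, chosen after seeing the data, thinning every library to 1941518 counts. The scripts were tested on simulated data. Figures were drawn with matplotlib 3.10.9.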

Additional observations from a re-analysis of the deposited data

Results flagged for a closer look

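Siglecf differed between the Tspan8 gates: its MHCIIlo minus MHCIIhi difference was 2.54 ± 0.32 (SE) within Tspan8pos and -0.69 ± 0.46 within Tspan8neg, and the interaction of 3.23 ± 0.56 passed the test (edgeR, adjusted p = 0.00446). Both Tspan8posMHCIIlo libraries (34.1 and 27.8 CPM) lay above both Tspan8posMHCIIhi libraries (4.38 and 6.10 CPM), whereas both Tspan8negMHCIIlo libraries (1.12 and 1.89 CPM) lay below both Tspan8negMHCIIhi libraries (2.70 and 2.31 CPM). With every library thinned to the smallest total, the interaction was 2.49 and not called (adjusted p = 0.0685). The call was also lost without any 1 library of Tspan8negMHCIIhi, Tspan8posMHCIIhi or Tspan8posMHCIIlo. These fits left 1 library in a subset and called fewer of all genes tested. The Siglecf call rests on 4 and 8 counts in Tspan8negMHCIIlo.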

How the results depend on the processing

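Of 936 values of the 9 genes under an alternative, 893 kept their direction and their side of the thresholds, 35 lost a call, 1 gained one and 7 changed sign. Fits without a library left 1 library in a subset and mostly called fewer of all genes. A call lost there cannot be told apart from the effect of the smaller sample. No call changed with DESeq2's size factors in edgeR, without a filter, or with a minimum of 10 counts in 4 or more libraries. The Siglecf call in Tspan8posMHCIIhi minus Tspan8negMHCIIlo was lost with DESeq2 (1.80) and with only the 4 libraries compared (1.79). The number of genes called in the interaction was 2 at an adjusted p of 0.05 and 0 after thinning, and 0 to 2 without a library. In Tspan8posMHCIIhi minus Tspan8negMHCIIlo, 2 to 4 genes were called without a library. Thinning also ended the calls of Gfi1b within Tspan8pos (1.24), Chat within MHCIIhi (1.56) and Siglecf in Tspan8posMHCIIhi minus Tspan8negMHCIIlo (1.39), with fewer counts by construction.

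The 7 values that changed sign were not called in either fit, and the cause was not tested. Gfi1b in MHCIIlo minus MHCIIhi within Tspan8neg was 0.053 without replicate 1 of Tspan8negMHCIIlo (range -0.69 to 0.053 without a library). In Tspan8posMHCIIhi minus Tspan8negMHCIIlo, Il17rb was 0.24 and 0.06 and Chat 0.022 and 0.12 without replicate 2 of Tspan8negMHCIIlo and without replicate 1 of Tspan8posMHCIIhi (ranges -0.49 to 0.24 and -1.06 to 0.12). The Sh2d6 interaction was 0.17 without replicate 2 of Tspan8negMHCIIlo and 0.061 without replicate 1 of Tspan8negMHCIIhi (range -0.41 to 0.17). Called values of Chat moved by over 1.5 times in fold without 1 library: 2.84 within Tspan8neg and 5.51 between Tspan8posMHCIIlo and Tspan8negMHCIIhi without replicate 2 of Tspan8negMHCIIhi, and 3.74 within Tspan8pos without replicate 2 of Tspan8posMHCIIhi.

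Replicates with the same number hardly deviated together (correlations of 0.00402 to 0.0924 over 6 pairs of subsets), so the numbers were not taken to pair the libraries. With the replicate block, 7, 9, 9, 8, 9, 4 and 1 of the 9 genes were called in the 7 comparisons, as without it, and no call of a gene changed. Counts in the Tspan8neg libraries were low for Siglecf (4 to 18), Gfi1b (12 to 48), Chat (12 to 99) and, in Tspan8negMHCIIhi, Il25 (13 and 12).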

Other observations

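A few genes of the pathway lists were also called in the interaction. Their share was not far from that of all genes, so they are described as single genes and not as a result about the lists. Of the 58 tested, 3 were called with a higher interaction (edgeR, adjusted p): Hmx3 (4.33 ± 0.61, 0.00157), Vill (2.16 ± 0.37, 0.00446) and Spib (1.52 ± 0.23, 0.00218), beside 2.36% of all genes. Hmx3, a homeobox factor, had 1.97 and 3.54 CPM in Tspan8negMHCIIlo, 8.94 and 5.38 CPM in Tspan8negMHCIIhi, 2.99 and 6.30 CPM in Tspan8posMHCIIhi, and 42.9 and 33.2 CPM in Tspan8posMHCIIlo. Its neighbour in the same family, Hmx2, had 3 and 7 counts in Tspan8negMHCIIlo and was not called (3.65 ± 0.76, adjusted p = 0.0111). Spib, an Ets family factor, had 290.4 and 396 CPM in Tspan8negMHCIIlo and 883 and 769 CPM in Tspan8posMHCIIlo, against 387 to 506 CPM in the MHCIIhi libraries.

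The other direction held 2 genes, Runx1 (-2.15 ± 0.20, adjusted p = 0.000243) and Gnb3 (-1.48 ± 0.26, adjusted p = 0.00506), beside 2.24% of all genes. Runx1 had 113.2 and 109.2 CPM in Tspan8negMHCIIlo against 8.53 and 8.97 CPM in Tspan8negMHCIIhi, and 156.7 and 164 CPM in Tspan8posMHCIIlo against 55.4 and 57.3 CPM in Tspan8posMHCIIhi. These genes were named after their values were seen, and how their calls held without a library is not given here.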
